A study of Mus musculus with 4 samples.

Results

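The tripartite motif (TRIM) family was followed through RNA sequencing of LSK cells with and without *Pich*. Members were all genes of the deposited table named Trim with a number and an optional letter, which gave 67 of the 39186 genes listed, all annotated as protein coding and spread over 15 chromosomes. LSK cells are lineage-negative, Sca-1-positive, c-Kit-positive cells, the gate that holds hematopoietic stem cells and multipotent progenitors, and here they were sorted from mouse fetal liver. The study compared 2 *Pich*-KO with 2 *Pich*-WT samples, all 4 of strain C57BL/6. The *Pich*-KO line carries a small germline deletion in an early exon of *Pich* (*Ercc6l*), an X-linked gene encoding a DNA translocase that coats ultrafine DNA bridges in mitosis. The deletion was therefore present in every cell of the embryo and not only in LSK cells. The sources used here do not say whether the samples of a group came from separate embryos or pools, so each p-value measures only the spread between these samples.

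Most TRIM proteins carry a RING domain, 1 or more B-boxes and a coiled coil, and many act as E3 ubiquitin ligases that pass ubiquitin from an E2 enzyme to a target chosen by the C-terminal domain. Several of them act in the sensing of foreign nucleic acid, where they switch sensors and adaptors on or off, and many are themselves induced by interferon. Other members work outside immunity, among them the TIF1 corepressors of chromatin, NHL-repeat proteins and ligases of maturing red cells.

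Values are normalized read counts, meaning reads assigned to a gene divided by 1 factor per sample. The *Pich*-KO samples held 15195434 and 14703215 reads on genes, and the *Pich*-WT samples held 20933919 and 15567891. *Pich*-WT sample 2 stood apart by sex, with 0 reads over 4 Y-linked genes, against 1607 to 2848 reads in the other 3 samples. *Ercc6l* transcript was not lost: it was at 1142 and 1232 in *Pich*-KO, against 772 and 661 in *Pich*-WT (log2 fold change 0.73, limma adjusted p = 0.00887), so its level does not check the genotype. The samples also differed in markers of other cells. All 12 macrophage markers fell in *Pich*-KO, with summed counts of 8433 to 10152 against 72202 to 75169, and 7 of 9 erythroid markers fell, with sums of 28432 to 31597 against 119614 to 157573. None of these macrophage and erythroid markers was at 3 reads or fewer in both *Pich*-KO samples. Of 7 hepatocyte markers, 4 fell and 0 rose, with a median log2 fold change of -0.83. Of 10 LSK and stem cell markers, *Ly6a* (Sca-1) rose and *Hlf*, *Mecom*, *Procr* and *Slamf1* fell. *Mpo* and *Ly6c2* rose among 6 neutrophil and monocyte markers, and the other 4 did not pass the threshold. The list sums, 57321 to 103243 against 13514 to 15941, were mostly *Mpo*, at 54647 and 90492 against 10351 and 12533. In bulk samples, fewer cells of a type and less RNA per cell cannot be told apart.

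To ask which TRIM genes differed between the genotypes, log2(normalized count + 1) was fitted with limma across all genes with a mean of at least 1. The gene encoding the RIG-I ligase, *Trim25*, and 6 neighbouring genes of a cluster on chromosome 7 rose in *Pich*-KO, as did *Trim27* and *Trim37*. *Trim47*, *Trim10*, *Trim3*, *Trim62*, *Trim16*, *Trim8* and *Trim24* fell. Of the 67 members, 62 reached the minimum and 5 did not (*Trim42*, *Trim54*, *Trim72*, *Trim75* and *Trim80*). Under a Benjamini-Hochberg adjusted p of 0.05, 9 of the 62 were higher, which is 14.5% beside 7.58% of all genes tested, and 7 were lower, which is 11.3% beside 9.60%. Part of the first difference goes with expression level. Among the 46 members with a mean of at least 10, 9 higher members make 19.6% beside 14.7% of all such genes, and 7 lower members make 15.2% beside 18.7%. The family as a whole was thus near the background, with a median log2 fold change of -0.02 beside 0.02 over all genes tested.

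The edgeR quasi-likelihood test on whole reads recovered from the table called 10 of 45 members higher, beside 18.6% of genes tested, and 7 lower, beside 20.7%. All 16 members called by limma were among them, and the additional one was *Trim6*. Both *Pich*-KO samples lay above both *Pich*-WT samples in 19 of the 62 members, beside 28.9% of all genes, and below them in another 19, beside 27.2%. For a gene past the threshold, groups that do not overlap nearly follow from the call and add no separate support. For a single gene, an exact permutation test of 2 against 2 samples cannot give a p below 0.333, so the calls rest on the spread that limma and edgeR share across genes.

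**Figure D1:**
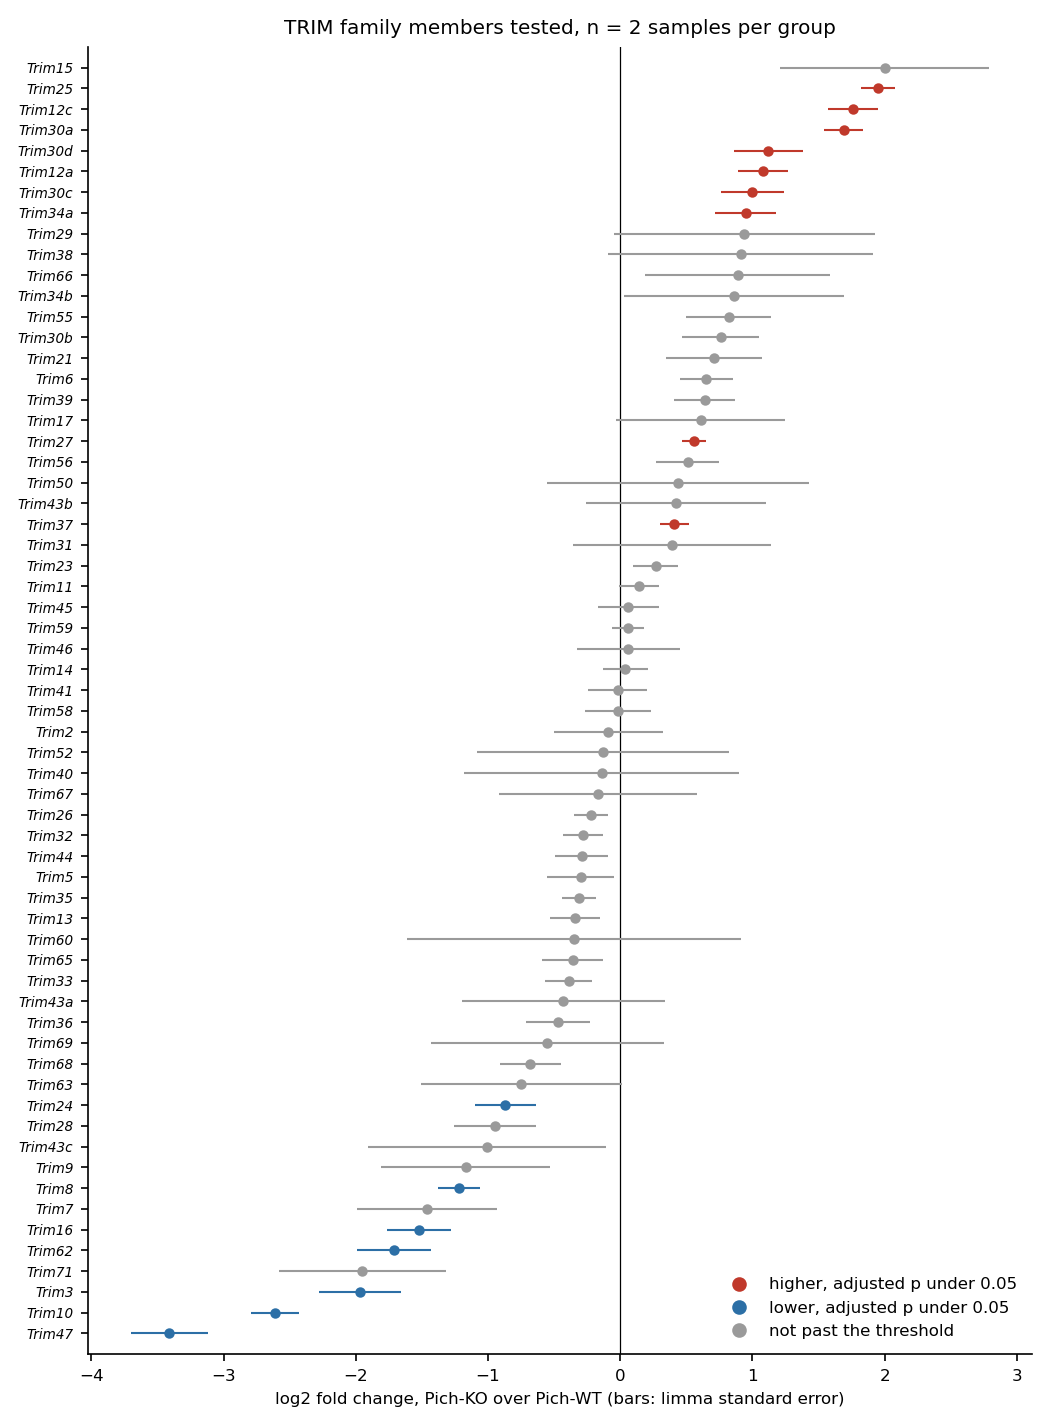
Log2 fold change of *Pich*-KO over *Pich*-WT for the 62 members tested, 1 row per gene, with limma standard errors as bars and n = 2 samples per group. Red points are the 9 members higher and blue points the 7 lower at an adjusted p under 0.05, and the range runs from -3.41 (*Trim47*) to 2 (*Trim15*, grey).

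The cluster on chromosome 7 gave the clearest shared direction. It spans chr7:104218793-104507849 (GRCm38), a stretch of 289057 bases that holds 13 genes of the table, and the 10 protein-coding ones are all TRIM genes related to *Trim5*, *Trim30* and *Trim34*. In primates, TRIM5 is the factor that blocks incoming retroviral capsids, and the mouse cluster is its expanded counterpart. Of the 10 genes, 6 rose, 4 did not pass the threshold and 0 fell, with a median log2 fold change of 0.97. Over the 52 tested members elsewhere, 3 rose, 7 fell and the median was -0.16. Limma called 7.58% of all genes tested higher and 9.60% lower, or 14.7% and 18.7% at a mean of at least 10. The summed count of the cluster was 8429 and 6320 in *Pich*-KO, against 2656 and 2910 in *Pich*-WT, that is 22.1% and 20.4% of all TRIM counts against 7.65% and 8.61%. The 10 genes are related neighbours and some share sequence, so they are not 10 separate observations. At an unadjusted p under 0.05, limma had 8 of the 10 higher and 0 lower, a threshold for which no share over all genes is given here. At its adjusted threshold edgeR had 7 of 9 higher and 0 lower, beside 18.6% and 20.7% of all genes it tested. Between the genotypes, the cluster rose alongside *Mpo*, *Ly6c2* and *Ly6a*. In *Pich*-KO samples 1 and 2, *Mpo* was at 54647 and 90492 and *Ly6c2* at 1068 and 2891, the reverse order to the cluster sum. *Ly6a*, at 3586 and 2978, had the order of the cluster sum. So did the rest of its list, with *Pich*-KO sample 1 above sample 2 in all 10 LSK and stem cell markers. Of these 10, 4 fell between the genotypes, so the order does not set *Ly6a* apart. The part of a shift in cell makeup in the rises of the cluster was not tested.

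*Trim30a*, whose product restrains Toll-like receptor signalling by removing the adaptors TAB2 and TAB3, was the most abundant gene of the cluster. It stood at 4464 and 3332 normalized counts in *Pich*-KO, against 1162 and 1229 in *Pich*-WT, a 3.26-fold higher mean (log2 fold change 1.69 ± 0.15 SE, limma adjusted p = 2.4e-04). The groups were well apart, with the *Pich*-WT samples close together and *Pich*-KO sample 1 above sample 2. *Trim12c*, a mouse relative of TRIM5 that promotes interferon and NF-κB signalling, was at 1237 and 1006 against 284 and 380 (1.76 ± 0.19, adjusted p = 6.3e-04). Its neighbour *Trim12a* was at 839 and 608 against 349 and 327 (1.08 ± 0.19, adjusted p = 0.00619). Both relatives of *Trim5* were thus higher in each *Pich*-KO sample than in either *Pich*-WT sample.

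Paralogs of *Trim30a* moved less. *Trim30d* was at 577 and 358 in *Pich*-KO, against 186 and 235 in *Pich*-WT (log2 fold change 1.12 ± 0.26, limma adjusted p = 0.0203). *Trim30c* was at 213 and 163 against 97.7 and 88.0 (1.00 ± 0.24, adjusted p = 0.0262). *Trim34a* was at 548 and 364 against 216 and 247 (0.95 ± 0.23, adjusted p = 0.0252). In these 3 genes the groups did not overlap, but the *Pich*-KO samples differed from each other by more than the *Pich*-WT samples did. *Pich*-KO sample 1 was above sample 2 in 9 of the 10 cluster genes, compared with 8393 of 16280 genes with a mean of at least 10.

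The other 4 genes did not pass limma's threshold. *Trim6*, whose product makes free ubiquitin chains that help activate the kinase IKKε, was at 264 and 224 against 151 and 159 (log2 fold change 0.65 ± 0.20, limma adjusted p = 0.0702, edgeR adjusted p = 0.0401). *Trim30b* was at 165 and 144 against 71.9 and 114 (0.76 ± 0.29, limma adjusted p = 0.121). Both had no overlap between the groups, with *Pich*-KO above, as had 28.9% of all genes tested. *Trim5* was at 118 and 88.7 against 127 and 126, the one gene of the cluster with both *Pich*-KO samples below *Pich*-WT (-0.30 ± 0.25, limma adjusted p = 0.505). *Trim34b* was the lowest gene of the cluster at 5.45 and 33.0 against 10.2 and 5, and its groups overlapped.

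**Figure D2:**
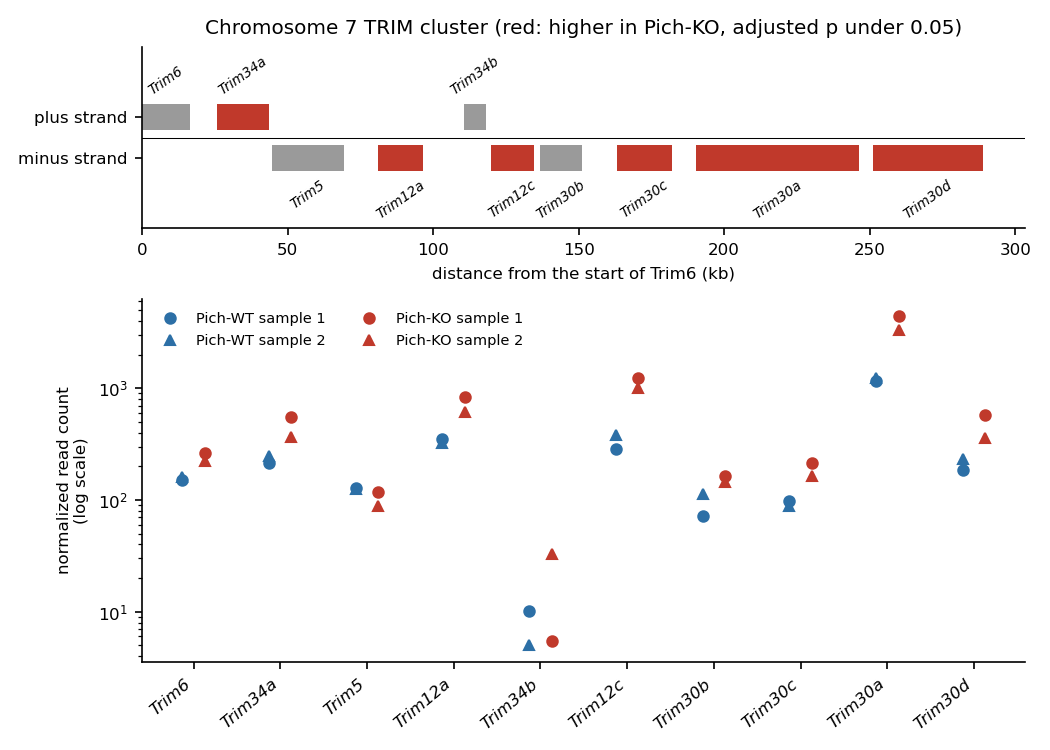
The chromosome 7 cluster. The upper panel draws its 10 genes to scale by strand against distance from the start of *Trim6* in kb (red, higher in *Pich*-KO at a limma adjusted p under 0.05), and the lower panel gives each gene's normalized count in the 4 samples on a log axis. The 6 red genes lie on both strands. In all 6 both *Pich*-KO points are above both *Pich*-WT points, which choosing them by a test of the same values makes likely.

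Near-identical copies limit how finely reads can be split within the cluster. Of all 50-base stretches in annotated transcripts, 56.8% of those of *Trim34b*, 39.8% of *Trim34a*, 36.3% of *Trim5* and 33.0% of *Trim12c* also occur in another gene, so these values are uncertain. The share was 10.4% for *Trim12a*, 7.49% for *Trim30d*, 5.98% for *Trim30a*, 0.660% for *Trim30c* and 0.550% for *Trim30b*. *Trim34a* also shares 23.5% of its exon bases with an antisense gene, and the library kit does not mark strand.

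Interferon-induced genes often carry an interferon-stimulated response element near their start, whose core is a pair of GAAA blocks separated by 2 bases of any kind (GAAANNGAAA, or TTTCNNTTTC on the other strand). The promoters in RefSeq (GRCm38.p6, 250 bases before to 50 after each start) were searched on both strands, and 52 of the 67 members had an entry. The core occurred in promoters of 9 of these 52 genes (17.3%), compared with 3.99% of the 27025 genes with an entry. In the cluster, 6 of 10 genes held it and 7 of 11 promoters did (63.6%, beside 3.44% of all 32851 promoters), while outside it 3 of 42 genes did (*Trim2*, *Trim21* and *Trim26*). Of the 9 members that rose, 5 held the core and *Trim25*, *Trim27*, *Trim37* and *Trim30c* did not, and 0 of the 4 lower members with an entry held it. A match describes letters only, and a missing match says only that these letters are not in the window.

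The windows below are those of the 6 cluster genes with the core, shown because they let the genes that rose be set beside *Trim5*, which carries the same letters and did not pass the test. Each is given on the strand of its gene, 5′ to 3′, with the core in capitals. The first 4 are the 80 bases just before the start, and the last 2 are the first 30 bases from the start. A second RefSeq promoter of *Trim30a*, not shown, also held the core, at 3 to 12 after its own start.
Trim30a, chr7:104465194-104465273, minus strand: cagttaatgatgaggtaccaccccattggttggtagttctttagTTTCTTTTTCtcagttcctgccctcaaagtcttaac
Trim30d, chr7:104507850-104507929, minus strand: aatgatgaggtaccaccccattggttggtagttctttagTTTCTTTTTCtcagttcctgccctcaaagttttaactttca
Trim12c, chr7:104353350-104353429, minus strand: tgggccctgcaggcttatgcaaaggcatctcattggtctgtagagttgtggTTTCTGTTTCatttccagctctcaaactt
Trim5, chr7:104288107-104288186, minus strand: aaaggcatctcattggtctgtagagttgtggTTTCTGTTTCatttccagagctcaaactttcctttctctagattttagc
Trim12a, chr7:104315466-104315495, minus strand: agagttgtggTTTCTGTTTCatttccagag
Trim34a, chr7:104244457-104244486, plus strand: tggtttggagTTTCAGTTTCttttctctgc

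The core lay at -36 to -27 from the start in *Trim30a*, -41 to -32 in *Trim30d*, -29 to -20 in *Trim12c* and -49 to -40 in *Trim5*. These 4 windows fall into 2 kinds. *Trim30a* and *Trim30d* share an unbroken run of 69 of the 80 bases, and *Trim12c* and *Trim5* share one of 49, while no pair across these kinds shares more than 7. In *Trim12a* and *Trim34a* the core lay at 11 to 20 after the RefSeq start, and in *Trim12a* this falls outside the gene boundaries of the deposited table. *Trim5* and *Trim12c* thus had the same core within a shared run, with log2 fold changes of -0.30 and 1.76. Of the 50-base transcript stretches of *Trim5*, 23.5% also occur in *Trim12c*, and 24.2% of those of *Trim12c* occur in *Trim5*. The split of reads between these genes, and so both fold changes, is uncertain. The gamma-activated site (TTCNNNGAA), which reads the same on both strands, was found in 6 of the 52 genes (11.5%, beside 9.55% of all genes). In the cluster only *Trim30c* had one, so that no cluster gene held both motifs.

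Of the 19 members with roles in nucleic acid sensing or antiviral signalling outside the cluster, 2 rose, 1 fell and 16 did not pass the threshold, and the median log2 fold change was 0.04. The shares over all genes tested, at the same adjusted threshold, were 7.58% higher and 9.60% lower. At an unadjusted p under 0.05 the list had 2 members higher and 3 lower, with no share over all genes given here. *Trim25* (chr11:88999376-89020293), whose ligase attaches ubiquitin chains to the RNA sensor RIG-I, was at 2861 and 2537 normalized counts in *Pich*-KO, against 650 and 742 in *Pich*-WT. This is a 3.88-fold higher mean (log2 fold change 1.95 ± 0.13, limma adjusted p = 8.0e-05), the highest fold change among the members called. *Trim27*, a widely expressed ligase known to dampen innate signalling, was at 5311 and 5410 against 3811 and 3488 (0.56 ± 0.09, adjusted p = 0.00424). Both genes had tight values within each genotype and no overlap between genotypes. *Trim8*, which modulates cytokine and NF-κB signalling, was at 760 and 597 against 1432 and 1713 (-1.22 ± 0.16, adjusted p = 0.00169) and was lower in each *Pich*-KO sample.

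Other well-known members of that list showed smaller differences. *Trim56*, *Trim21*, *Trim14* and *Trim26*, which like *Trim25* are listed as interferon-induced, had log2 fold changes of 0.51, 0.71, 0.04 and -0.22, none past the threshold (limma adjusted p of 0.223, 0.243, 0.922 and 0.322). In all, 7 of 15 interferon-induced members rose and 0 fell, with a median log2 fold change of 0.91 (8 and 0 at an unadjusted p under 0.05 in limma, and 7 and 0 by edgeR). Over all genes tested, at the adjusted threshold, limma called 7.58% higher and 9.60% lower, and edgeR 18.6% and 20.7%. For the unadjusted threshold no such share is given here. The list overlaps the chromosome 7 cluster in 9 genes, and *Trim25* was the one riser outside it.

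**Figure D3:**
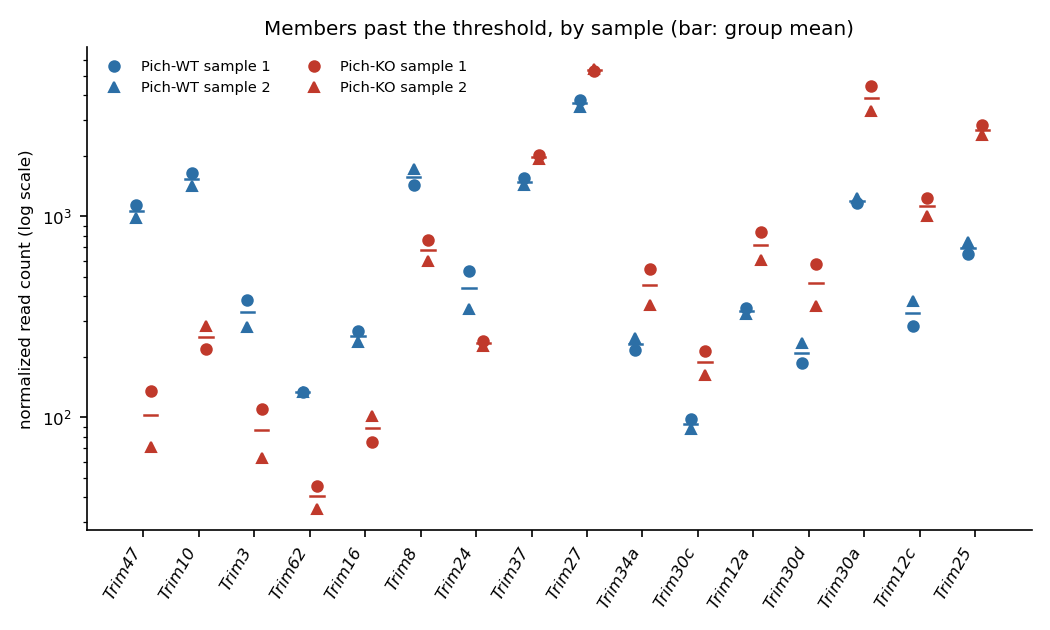
Normalized read count (log axis) of the 16 members past the threshold in each sample, ordered by log2 fold change from *Trim47* to *Trim25*, with circles for sample 1, triangles for sample 2 and short bars for group means. In all 16 genes the *Pich*-KO (red) and *Pich*-WT (blue) points do not overlap. The genes were chosen by a test of these same values, so this is no separate support.

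The TIF1 proteins are chromatin readers with a PHD finger and a bromodomain. *Trim28* (KAP1), the corepressor that KRAB zinc finger proteins bring to endogenous retroviruses, was the most abundant TRIM gene per length in both genotypes. It was at 6707 and 2933 normalized counts in *Pich*-KO, against 8536 and 8651 in *Pich*-WT. Both *Pich*-KO samples were below *Pich*-WT, but they differed from each other by more than sample 1 differed from *Pich*-WT, and the fold change did not pass (log2 -0.95 ± 0.31, limma adjusted p = 0.0783). Without *Pich*-KO sample 1 it was -1.55, and without sample 2 it was -0.36.

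*Trim24*, a coregulator of the retinoic acid receptor, fell from 534 and 345 in *Pich*-WT to 241 and 227 in *Pich*-KO (log2 -0.87 ± 0.23, limma adjusted p = 0.0370). The *Pich*-KO samples were close together and the spread was within *Pich*-WT, and leaving out *Pich*-WT sample 1 brought the value to -0.56. *Trim33*, a regulator of SMAD signalling and of erythroid differentiation, was at 239 and 263 against 324 and 334 (-0.39 ± 0.18, adjusted p = 0.192). *Trim66* was low, at 15.3 and 35.2 against 23.4 and 6.00, and its groups overlapped. In total 1 of 4 TIF1 members fell and 0 rose in limma (2 and 0 at an unadjusted p under 0.05, and 1 and 0 by edgeR). Over all genes with a mean of at least 10, limma called 18.7% lower and 14.7% higher. Of the genes it tested, edgeR called 20.7% lower and 18.6% higher. These shares are at the adjusted threshold, and none is given here for the unadjusted one.

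Partners of TRIM28 in silencing were read beside it. Of 11 genes of this complex, 4 rose and 1 fell (beside 14.7% and 18.7% of all genes with a mean of at least 10), and the median log2 fold change was 0.40. At an unadjusted p under 0.05, for which no share over all genes is given here, there were 7 higher and 1 lower. *Smarcad1*, a chromatin remodeller, was at 885 and 845 in *Pich*-KO against 259 and 232 (log2 fold change 1.81, limma adjusted p = 2.3e-04). *Chd3*, a subunit of the NuRD complex, was at 127 and 110 against 202 and 278 (-1.0, adjusted p = 0.0246). *Chd4* of the same list was more abundant and rose, at 2223 and 2027 against 1290 and 1170 (0.79, limma adjusted p = 0.00290).

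Among the erythroid members, *Trim10*, which is needed for terminal red cell differentiation, fell steeply. It was at 218 and 285 normalized counts in *Pich*-KO, against 1645 and 1422 in *Pich*-WT, 6.09-fold higher in *Pich*-WT (log2 fold change -2.61 ± 0.18, limma adjusted p = 9.0e-05). *Trim58*, the ligase that removes dynein from maturing erythroblasts, was at 146 and 153 against 184 and 125 (-0.02 ± 0.25, adjusted p = 0.978). The fall of *Trim10* went with that of the erythroid markers, whose median log2 fold change was -1.81 and which ran from -3.07 (*Alas2*) to -0.36 (*Gata1*). The part of red cell precursors in this result was not tested.

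Of the NHL-repeat members, 1 of 4 fell and 0 rose, beside 9.60% lower and 7.58% higher over all genes tested. A single call among 4 members is too few to set apart from these shares. *Trim3*, a ligase with a growth-restraining role in the nervous system, was at 110 and 62.5 in *Pich*-KO, against 385 and 280 in *Pich*-WT (log2 -1.97 ± 0.31, limma adjusted p = 0.00372). *Trim71*, *Trim32* and *Trim2* had log2 fold changes of -1.95, -0.28 and -0.09 and did not pass (limma adjusted p of 0.0757, 0.290 and 0.919).

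*Trim47*, a RING ubiquitin ligase in no role list, had the steepest fall of the family. It was at 135 and 71.6 normalized counts in *Pich*-KO, against 1139 and 977 in *Pich*-WT, 10.2-fold higher in *Pich*-WT (log2 -3.41 ± 0.29, limma adjusted p = 2.2e-04). It shares 8.23% of its exon bases with *Trim65*, which lies on the same strand and was at 134 and 183 against 211 and 191 (-0.36, adjusted p = 0.381). *Trim62*, a ligase linked to epithelial polarity, was at 45.8 and 35.2 against 134 and 133 (-1.71 ± 0.28, adjusted p = 0.00457). *Trim16*, which lacks a RING domain and takes part in the autophagy of damaged membranes, was at 75.3 and 101 against 269 and 238 (-1.52 ± 0.24, adjusted p = 0.00374). *Trim16* shares 5.19% of its exon bases with *Fbxw10*. In each of these 3 genes the lowest *Pich*-WT value was over the highest *Pich*-KO value. These and the other lower members share a direction with every marker list that fell, which follows from choosing them as lower. The median log2 fold change was -5.02 for macrophage, -1.81 for erythroid, -0.83 for hepatocyte and -0.55 for LSK and stem cell markers. The macrophage marker *Marco* went from 2572 and 2878 in *Pich*-WT to 3.27 and 77.3 in *Pich*-KO. The part of any of these cell types in these results was not tested.

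*Trim37*, a ligase that controls centrosome number and peroxisome import, was the remaining riser. Its values were 2017 and 1932 in *Pich*-KO, against 1544 and 1433 in *Pich*-WT (log2 fold change 0.41 ± 0.11, limma adjusted p = 0.0395), a small difference between groups that were each tight. Of the other lists, 0 of 4 COS-box microtubule members, 0 of 2 tested muscle members, 0 of 5 tested germline and early embryo members and 0 of 2 members with a transmembrane anchor passed in limma, and at an unadjusted p under 0.05 the count was 0 in these lists except for 1 muscle member, *Trim55*, at 134 and 87.5 against 70.3 and 53.0. By edgeR the count was also 0 of those it tested in the microtubule, muscle and transmembrane lists, and none of the germline list had enough reads for it. The transmembrane member *Trim59* was abundant, at 1711 and 1989 against 1759 and 1789 (0.06 ± 0.12, limma adjusted p = 0.814), and its groups overlapped. The germline list was barely detected, with summed counts of 10.9 to 21 over 7 genes. *Trim15*, picked out after its values were seen because it heads the plot of fold changes, was at 5.45 and 3.41 against 0.782 and 0.00 and did not pass (limma adjusted p = 0.140).

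The order of the family by level changed with genotype. Per kb of gene length, *Trim28* ranked 1 of 67 in both genotypes, with means of 2067 normalized counts per kb in *Pich*-WT and 1159 in *Pich*-KO. Next in *Pich*-WT came *Trim35*, *Trim10*, *Trim27* and *Trim59*, and next in *Pich*-KO came *Trim27*, *Trim30a*, *Trim35* and *Trim59*. *Trim10* went from rank 3 to rank 18 (683 to 112 per kb) and *Trim47* from rank 7 to rank 27 (387 to 37.8). In the other direction, *Trim30a* went from rank 8 to 3 (291 to 948 per kb), *Trim25* from 15 to 6 (121 to 469) and *Trim12c* from 18 to 7 (88.8 to 300).

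**Figure D4:**
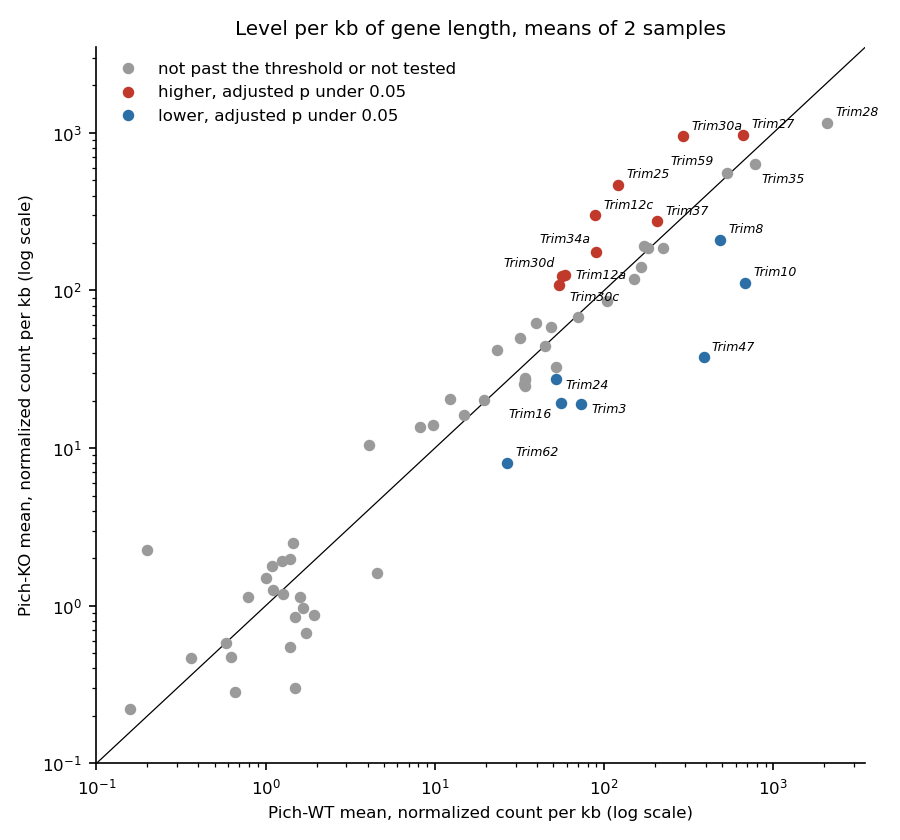
Mean normalized count per kb of gene length in *Pich*-KO against *Pich*-WT, both on log axes, 1 point per member and n = 2 samples per mean, with the line of equal level (3 members with a mean of 0 in a genotype are not drawn). *Trim28* lies at the top right in both genotypes, *Trim25*, *Trim30a* and *Trim12c* lie above the line, and *Trim10* and *Trim47* lie furthest below it among the abundant genes.

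Genes that work with TRIM ligases were described in the same fit. Of 16 sensors and adaptors that TRIM proteins act on, 8 rose and 1 fell, and the median log2 fold change was 0.47. At the same adjusted threshold, the shares called over all genes with a mean of at least 10 were 14.7% and 18.7%. At an unadjusted p under 0.05 the list had 8 higher and 4 lower, with no share over all genes given here. *Irf7*, the interferon-inducible transcription factor that amplifies interferon production, was at 9487 and 4981 normalized counts in *Pich*-KO, against 1356 and 1615 in *Pich*-WT (log2 fold change 2.22, limma adjusted p = 9.2e-04). *Mavs*, the mitochondrial adaptor below RIG-I, was at 749 and 745 against 1134 and 1122 (-0.59, adjusted p = 0.0135). The gene of the DNA sensor cGAS (*Mb21d1*) was at 1319 and 1190 against 560 and 611 (1.1, adjusted p = 0.00118). Its downstream adaptor STING (*Tmem173*) was at 2292 and 2350 against 1622 and 1612 (0.52, adjusted p = 0.0105). In each of these 4 genes the genotypes did not overlap, which nearly follows from their passing the threshold.

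Of 9 E2 enzymes used by TRIM ligases, 3 rose and 0 fell in limma (4 and 0 both at an unadjusted p under 0.05 and by edgeR), with a median log2 fold change of 0.28. Over all genes with a mean of at least 10, 14.7% were called higher by limma, and edgeR called 18.6% of the genes it tested. Both shares are at the adjusted threshold, and none is given here for the unadjusted one. *Ube2v2*, a partner of UBE2N in making ubiquitin chains, was at 353 and 332 in *Pich*-KO against 216 and 168 (0.84, limma adjusted p = 0.0246). Among 5 tripartite-motif genes that go by other names, *Pml*, the scaffold of nuclear bodies, rose slightly (0.48, limma adjusted p = 0.0484). *Mid2*, a microtubule-binding ligase, fell (-1.95, limma adjusted p = 0.0159). Over all genes tested, limma called 7.58% higher and 9.60% lower. The *Pml* call was near the threshold and was lost in alternative fits besides the one with 1 prior variance.

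**Figure D5:**
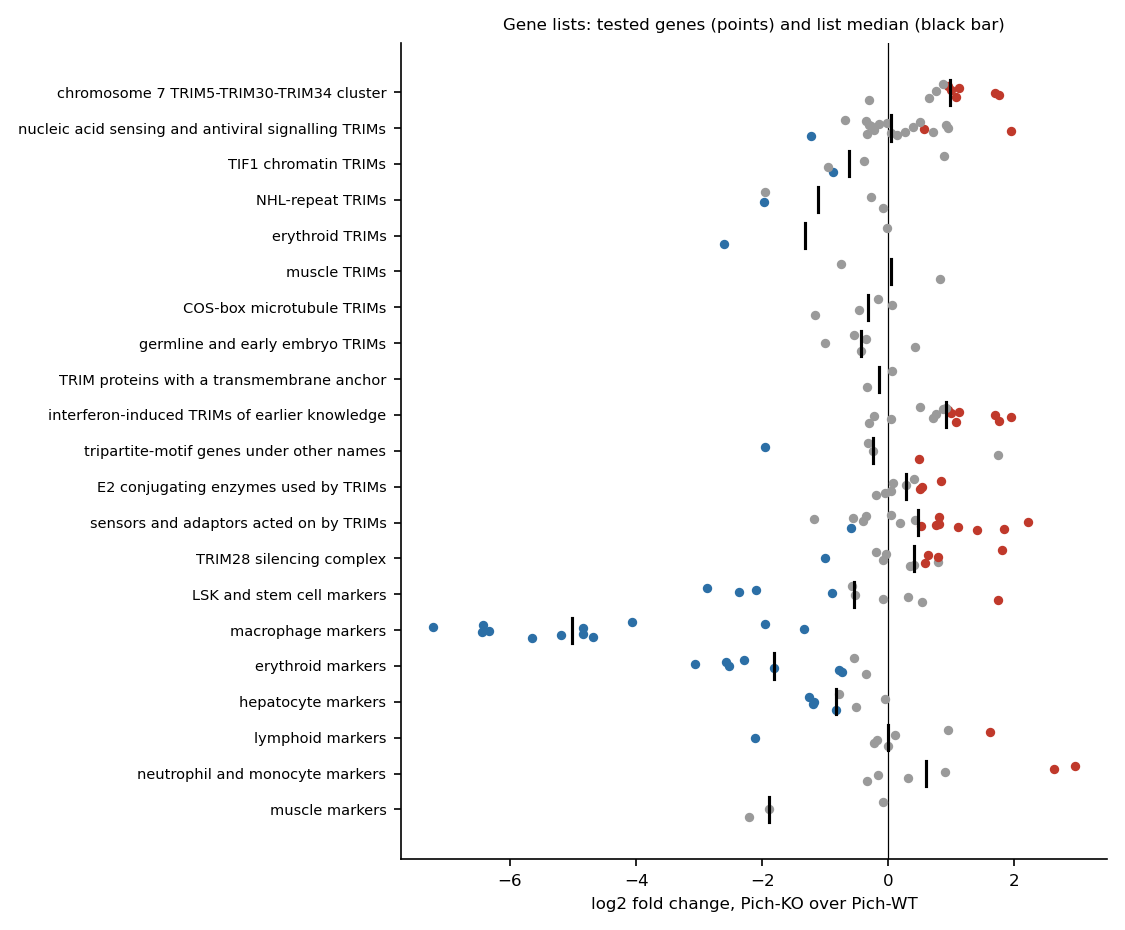
Log2 fold change of *Pich*-KO over *Pich*-WT for the tested genes of each list, with 1 point per gene (red higher, blue lower, grey not past a limma adjusted p of 0.05) and a black bar at the list median. The chromosome 7 cluster lies to the right with a median of 0.97, and the macrophage markers lie furthest left with a median of -5.02.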

How the data were processed

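RNA of sorted fetal liver LSK cells was sequenced from TruSeq libraries. The authors deposited 1 table whose sample values are a signal: read counts on genes divided by 1 factor per sample. Submitters' processing notes name Bowtie 0.12.2 and the builds mm8 and mm9, but 97.8% of 39163 genes have the start and end of GENCODE M21 (GRCm38), whose coordinates are used here. The counting tool is not given in the sources used here. The table's group means and its columns of the authors' own comparison (fold change, p-value, adjusted p-value) were not used. No column of sample values lacked a sample (0).

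Whole reads were recovered for 100% of values (tolerance 0.1 reads). Replicates differed beyond sampling noise (chi-square per degree of freedom 14.7 in *Pich*-KO, 8.18 in *Pich*-WT). The main test was limma 3.58.1 in R 4.3.3 with a variance trend on log2(value + 1), which understates changes of low genes, over genes with a mean of at least 1 and with Benjamini-Hochberg adjustment over all 32428. The paper states no test for these libraries. Alternatives were edgeR 4.0.16 (TMM or upper-quartile scaling) and DESeq2 1.42.0 on recovered reads, a pseudocount of 0.1, no filter, 10 reads in every sample, 1 prior variance, a minimum log2 fold change of 1, a replicate block and leaving out each sample. The scripts were tested on simulated data.

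Members with values are those past the threshold, the tested ones of the chromosome 7, TIF1 and erythroid lists, and those on which limma and edgeR differ, and from lists of other genes the called gene with the largest rise and fall, plus cGAS, STING and *Ercc6l*. Other genes given with values fall outside this rule and were chosen after their values were seen. These are *Trim15*, *Trim55*, *Trim59*, *Trim65*, *Chd4* and *Mpo* with sample values, further members with fold changes only, and *Gata1* as the end of a range. Members and lists were chosen with earlier results of these data known. *Trim61* was not analysed here. No RefSeq promoter entry was used for 15 members.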

Additional observations from a re-analysis of the deposited data

How the results depend on the processing

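With 2 samples per group, the calls rest on a variance borrowed across genes. With 1 prior variance for all genes, 0 members were higher and 0 lower (8 and 7 at an unadjusted p under 0.05), and without any one sample, which leaves 1 residual degree of freedom, limma gave 0 higher and 0 lower each time (5 to 12 unadjusted in each direction). Of the 16 called members, 16 kept their direction without each sample. Without *Pich*-WT sample 2, the one with no Y-linked reads, *Trim25*, *Trim30a*, *Trim10* and *Trim47* had log2 fold changes of 2.05, 1.73, -2.72 and -3.52. Members higher numbered 5 with no filter on low values and 5 at an absolute log2 fold change of at least 1, and stayed between 7 and 11 elsewhere, while members lower stayed between 6 and 9. Calls were lost with a pseudocount of 0.1 for *Trim24*, *Trim34a* and *Trim37* (limma adjusted p of 0.0673, 0.0505 and 0.0503), and with no filter for those 3, *Trim30c* and *Trim30d* (0.0897, 0.0693, 0.0630, 0.0519 and 0.0661). The cause was not tested. The median of the members ranged from -0.09 to 0.14 without 1 sample, and was 0.14 without *Pich*-KO sample 1. *Trim34b* reversed to -0.34 without *Pich*-KO sample 2 (range -0.34 to 2.05), *Trim58* to 0.02 without *Pich*-KO sample 1 and 0.26 without *Pich*-WT sample 1 (range -0.29 to 0.26), and *Trim66* to -0.01 without *Pich*-WT sample 2 (range -0.01 to 1.79). The deviations of samples with the same number had a correlation of 0.013 over 10544 genes. This 1 value from 4 samples cannot tell whether samples with the same number shared a batch. With the replicate block 11 members were higher and 9 lower, and the calls gained among those named were *Trim6* (adjusted p = 0.0494) and *Trim28* (2.4e-08). Counts under about 3 reads, where 6 members stayed in every sample, limit what can be seen at this depth.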
